A study of Mus musculus with 8 samples.

Results

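The MAGE (melanoma antigen) family was followed in whole testes of 16 dpp (days post partum) mice through 10 of its genes, which are covered by 20 of the 45281 probes on the Illumina WG-6 mouse array (version 2.0). The members are Magea5, Magea8, Mageb4 and Mageb16 of type I (9 probes) and Maged1, Maged2, Mageh1, Magel2, Tro and Ndn of type II (11 probes). Every probe annotated to one of these symbols was taken. The 10 genes were chosen partly from their Tex19.1-/- against Tex19.1+/- values on these same arrays, so the differences of the members are given below as a description and are not tested. Which of those values led to each choice is not recorded.

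Each of 8 males, 4 Tex19.1-/- and 4 Tex19.1+/-, gave total RNA for 1 array, and numbers 1 to 4 name the animals within a genotype. All 8 animals are labelled C57BL/6, and per the methods the Tex19.1 mutation had been backcrossed 3 times to that strain. The mutation is carried in every cell of the animal, and the controls also carry 1 mutant copy. The methods describe wild-type as well as heterozygous controls, whereas only Tex19.1+/- is found in the labels of the 4 controls.

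MAGE genes encode proteins that share a MAGE homology domain, through which many of them bind RING-type E3 ubiquitin ligases and direct them to substrates. Type I genes, including the MAGE-A and MAGE-B subfamilies, lie mostly on the X chromosome, are expressed mainly in germ cells and are known in humans as cancer-testis antigens because tumours switch them on, often with loss of DNA methylation at their promoters. Type II genes are expressed in many somatic tissues, and Maged1, Magel2 and Ndn are best known from neurons. Tex19.1 is a germ cell gene, and loss of it is known to disturb male meiosis and retrotransposon silencing.

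To show sequence next to genes with a probe that differed by over 0.6 on the log2 scale, the 250 bases before the annotated start of Magea8, Magea2 (a MAGE-A gene outside the chosen 10) and Mageb4 are printed from RefSeq, build GRCm38.p6, 5′ to 3′ on the minus strand of the X chromosome, with CG dinucleotides in capitals, since cytosine methylation in mammals falls mainly on CG. The windows are chrX:154995851-154996100 for Magea8, chrX:155033293-155033542 for Magea2 and chrX:86256220-86256469 for Mageb4. Magea5 and Tro also had such a probe but are not printed, the Magea5 window of the RefSeq table lying inside the gene and Tro having no entry there.
Magea8: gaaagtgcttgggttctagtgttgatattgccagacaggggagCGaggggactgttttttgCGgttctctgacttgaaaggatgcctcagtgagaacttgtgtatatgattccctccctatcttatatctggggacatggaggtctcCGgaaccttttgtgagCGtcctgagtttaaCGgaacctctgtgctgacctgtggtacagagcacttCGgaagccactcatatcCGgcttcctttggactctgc
Magea2: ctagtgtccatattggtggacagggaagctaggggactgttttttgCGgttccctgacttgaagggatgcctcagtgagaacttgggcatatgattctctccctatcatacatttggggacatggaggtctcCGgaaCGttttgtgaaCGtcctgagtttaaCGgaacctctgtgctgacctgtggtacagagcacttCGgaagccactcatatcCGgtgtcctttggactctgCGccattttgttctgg
Mageb4: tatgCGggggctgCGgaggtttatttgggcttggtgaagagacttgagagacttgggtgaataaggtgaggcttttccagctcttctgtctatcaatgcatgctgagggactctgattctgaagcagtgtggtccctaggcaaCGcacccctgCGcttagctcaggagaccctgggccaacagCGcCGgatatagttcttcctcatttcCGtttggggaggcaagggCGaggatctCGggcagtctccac

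The windows of Magea8 and Magea2 were near copies of each other, with 216 identical bases, 19 mismatches and 30 gap positions in a global alignment (81.5% identity). The Mageb4 window shared 46.6% of aligned positions with Magea8 and 47.0% with Magea2. Magea1 and Magea3, not detected here, had windows closer still at 84.1%, and the other pairs of MAGE-A and Mageb4 windows aligned lay at 43.4% to 53.8%. CG occurred 7 times before Magea8, 8 times before Magea2 and 9 times before Mageb4, against a median of 6 over 32851 mouse promoter windows of this length (quartiles 2 and 16). The windows of Magea1 and Magea3 held 0 CG, that of Magea6 held 1, that of Magea10 held 2, that of Mageb16 held 5 and that of Magee1 held 10. The sequence CCGGAA, searched on both strands, was picked after the Magea8 and Magea2 windows had been compared. Its presence in those 2 near copies was therefore fixed in advance. It was found in 12.0% of all windows, and not in those of Mageb4 or the other MAGE genes named in this paragraph. Among the type II members the count of CG was 14 for Maged1, 7 to 16 over the 4 windows of Maged2, 11 for Mageh1, 7 for Magel2 and 5 for Ndn. Whether these counts go with the differences between genotypes was not tested. DNA methylation was not measured in these samples.

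All values below are normalized log2 signals unless raw signals are named. A probe was detected in an array if its detection p was under 0.01, and the 19089 probes detected in at least 1 array were kept for the comparison of genotypes. The signal for Tex19.1 itself (ILMN_2615917) was above background in 0 of 4 Tex19.1-/- testes and 4 of 4 Tex19.1+/- testes, and was at least 4.33-fold lower in Tex19.1-/- testes. The mean background-subtracted signal of an array was 79.0 to 126 in Tex19.1-/- testes and 90.8 to 159 in Tex19.1+/- testes, before quantile normalization. Of the kept probes, 27 (0.141%) were called higher and 311 (1.63%) were called lower in Tex19.1-/- testes at an adjusted p of at most 0.01 (limma, Benjamini-Hochberg). Fitted with the replicate block, which pairs animals of the same number, 48 were called higher and 470 lower. That the numbers pair animals is an assumption, since no source used here says what they mark. The mid to late pachytene markers were lower, with 8 of 12 kept genes called lower, a median log2 difference of -1.44, the largest difference in Ldhc (-3.11), and a summed linear signal of 5609 to 9160 in Tex19.1-/- testes and 15820 to 23630 in Tex19.1+/- testes. In whole testes, fewer cells of a type and less RNA per cell cannot be told apart.

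Of the 20 member probes 17, covering 9 of the 10 genes, were detected in at least 1 testis. Mageb16 (ILMN_1253950) was not detected in any of the 8 testes, nor were the second Magea8 probe (ILMN_2770293) and 1 of the 5 Tro probes (ILMN_1235530). Of the type I genes, Magea5, Magea8 and Mageb4 therefore had at least 1 probe detected in all 8 testes, and of the type II genes Maged1, Maged2, Ndn and Tro did. Mageh1 and Magel2 were near the limit of detection. Levels of different probes are not set against each other here, because probes differ in how brightly they report the same amount of RNA.

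**Figure D1:**
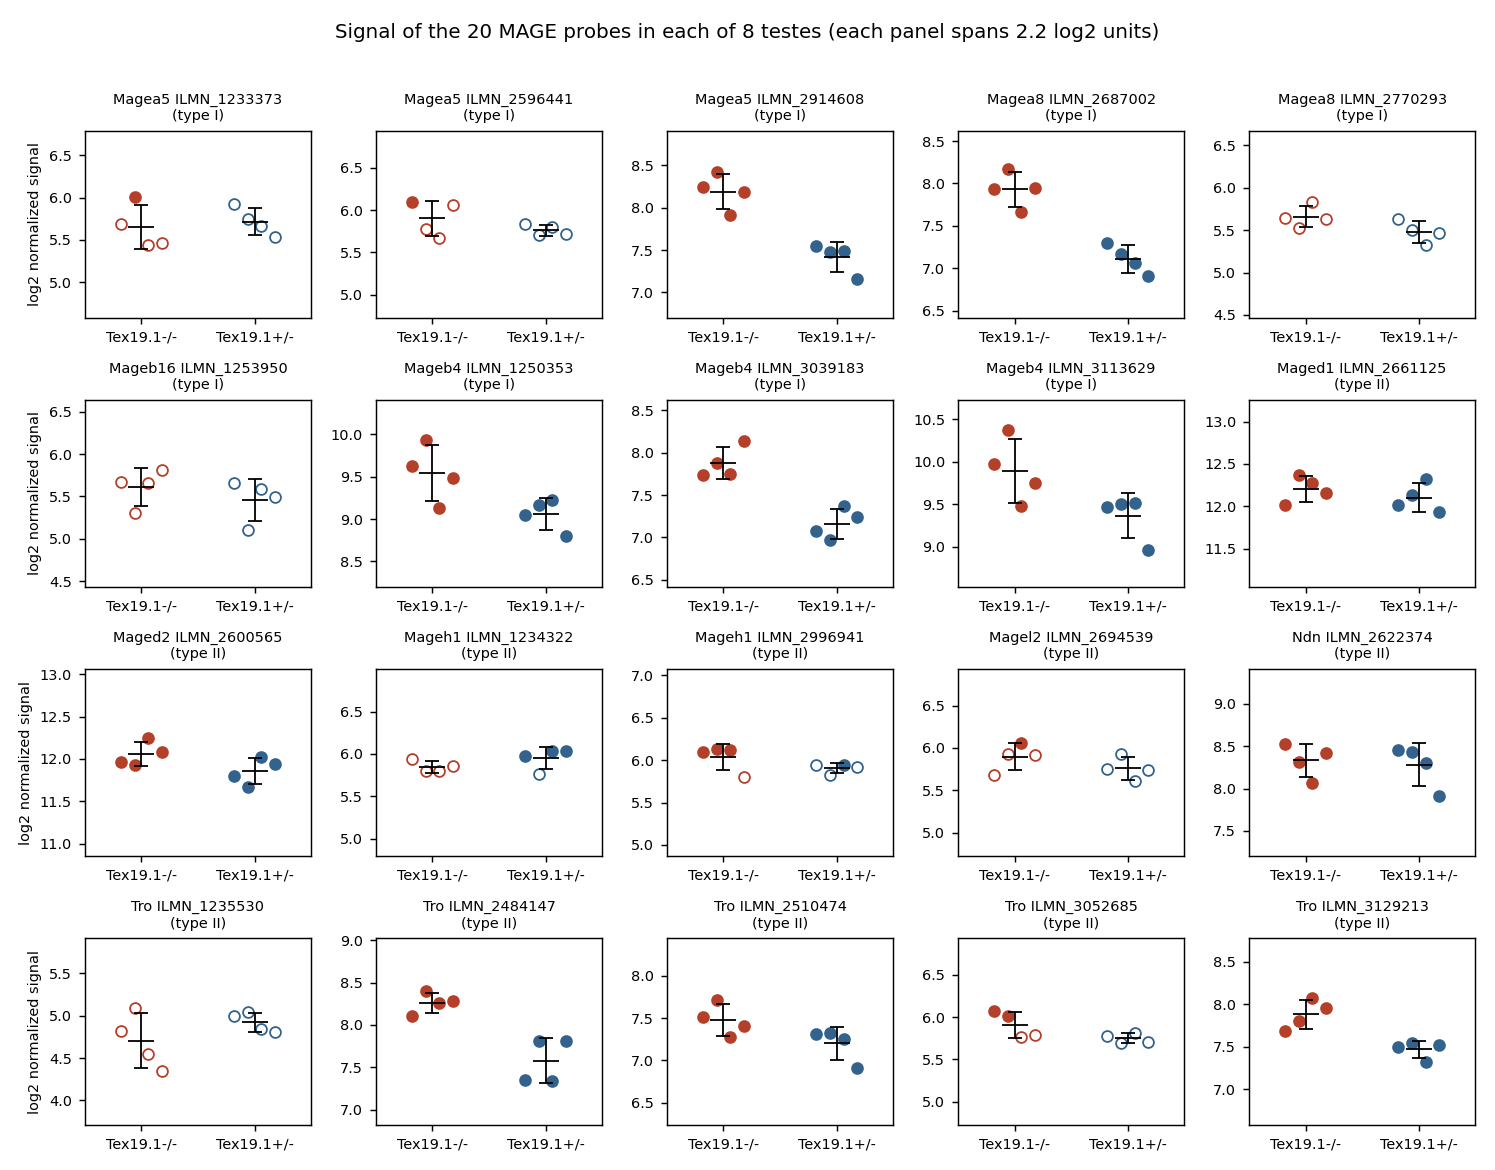
Normalized log2 signal of each of the 20 member probes in single testes, with 4 Tex19.1-/- animals on the left of each panel and 4 Tex19.1+/- animals on the right, in the order of their numbers. Filled circles were detected and open circles were not, bars give the mean and SD, and in 5 panels (Magea5, Magea8, Mageb4 and 2 of Tro) all Tex19.1-/- animals lie above all Tex19.1+/- animals.

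Magea8 (ILMN_2687002), a MAGE-A gene, had the largest difference of the members. Its log2 signal was 7.93, 8.17, 7.67 and 7.95 in Tex19.1-/- testes 1 to 4 and 7.29, 7.16, 7.06 and 6.91 in Tex19.1+/- testes 1 to 4. The genotypes did not overlap, the lowest Tex19.1-/- testis being number 3. The means were 7.93 ± 0.21 and 7.11 ± 0.16 (SD, n = 4 each), a log2 difference of 0.82 (SE 0.13) or 1.77-fold, the 28th highest of the 19089 kept probes and the third highest of the 544 kept X-linked probes.

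Magea5 (ILMN_2914608), a neighbour of Magea8 on the X chromosome with Magea2 between them, showed the same picture. It had log2 signals of 8.24, 8.42, 7.91 and 8.18 in Tex19.1-/- testes, against 7.55, 7.47, 7.49 and 7.16 in Tex19.1+/- testes. Again no Tex19.1+/- testis reached the lowest Tex19.1-/- testis. The log2 difference was 0.77 (SE 0.13), or 1.71-fold. The other 2 probes of Magea5 were each detected in 1 Tex19.1-/- testis and in 0 Tex19.1+/- testes, with log2 differences of -0.07 (ILMN_1233373) and 0.14 (ILMN_2596441), so the higher level of Magea5 rests on 1 probe.

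Mageb4, a MAGE-B gene, had 3 probes detected in all 8 testes. For ILMN_3039183 the log2 signals were 7.74, 7.87, 7.75 and 8.14 in Tex19.1-/- testes and 7.08, 6.97, 7.37 and 7.24 in Tex19.1+/- testes, with a log2 difference of 0.71 (SE 0.12) or 1.64-fold. On this probe the genotypes were apart, and Tex19.1-/- testis 4 was the highest. For ILMN_1250353 the log2 signals were 9.63, 9.93, 9.13 and 9.49 in Tex19.1-/- testes and 9.05, 9.17, 9.22 and 8.80 in Tex19.1+/- testes, with a difference of 0.49 (SE 0.16). For ILMN_3113629 they were 9.97, 10.38, 9.47 and 9.75 in Tex19.1-/- testes and 9.47, 9.51, 9.52 and 8.97 in Tex19.1+/- testes, with a difference of 0.53 (SE 0.18). On these 2 probes the genotypes overlapped, because Tex19.1-/- testis 3 lay among the Tex19.1+/- testes.

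Several type I probes ranked the animals of a genotype alike. In Magea5, Magea8 and both overlapping Mageb4 probes, Tex19.1-/- testis 2 was the highest and testis 3 the lowest of the Tex19.1-/- testes, and testis 4 was the lowest of the Tex19.1+/- testes. The remaining Mageb4 probe had another order. The order shared by the others was also found in the type II probe Tro ILMN_2510474, in Magea6 (ILMN_2694973) and in the X-linked partner gene Bex2 (ILMN_3065164). It was therefore not particular to type I probes.

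Tro (trophinin), a type II gene on the X chromosome whose human protein was described in cell adhesion, was the type II member with the largest difference. For ILMN_2484147 the log2 signals were 8.11, 8.40, 8.26 and 8.29 in Tex19.1-/- testes and 7.35, 7.81, 7.34 and 7.81 in Tex19.1+/- testes. The genotypes did not overlap, and the difference was 0.69 (SE 0.13) or 1.61-fold. For ILMN_3129213 they were 7.69, 7.81, 8.08 and 7.96 in Tex19.1-/- testes and 7.50, 7.55, 7.32 and 7.52 in Tex19.1+/- testes, with a difference of 0.41 (SE 0.11) and again no overlap. Here Tex19.1-/- testis 3 was the highest, where it was the lowest for Magea5 and Magea8. The third probe (ILMN_2510474) differed by 0.27 (SE 0.13) with overlap, and on it Tex19.1-/- testis 3 was the lowest, as for Magea5 and Magea8. The fourth (ILMN_3052685) was detected in 2 Tex19.1-/- testes and 0 Tex19.1+/- testes and differed by 0.16 (SE 0.10).

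The other type II members differed less between genotypes. Maged1, which encodes a protein that binds the p75 neurotrophin receptor, had log2 signals of 12.02, 12.37, 12.28 and 12.15 in Tex19.1-/- testes and 12.02, 12.13, 12.32 and 11.93 in Tex19.1+/- testes, a difference of 0.10 (SE 0.12). Maged2, whose human gene is mutated in a transient antenatal form of Bartter syndrome, had 11.97, 11.93, 12.25 and 12.08 in Tex19.1-/- testes and 11.80, 11.67, 12.02 and 11.94 in Tex19.1+/- testes, a difference of 0.20 (SE 0.11). Both genes were detected in all 8 testes and their genotypes overlapped. Between animals of the same number Maged2 was higher in the Tex19.1-/- testis by 0.16, 0.26, 0.23 and 0.15 in pairs 1 to 4. Under median scaling, where the median of all kept probes moved to 0.14, Maged1 differed by 0.54 and Maged2 by 0.63.

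Ndn (necdin), an imprinted growth suppressor on chromosome 7, had log2 signals of 8.53, 8.31, 8.07 and 8.42 in Tex19.1-/- testes and 8.46, 8.44, 8.30 and 7.92 in Tex19.1+/- testes, a difference of 0.06 (SE 0.14) whose sign turned to -0.12 under median scaling with another shift, to -0.0098 without Tex19.1-/- testis 1 and to -0.066 without Tex19.1+/- testis 4. Its imprinted neighbour Magel2, whose human protein acts with TRIM27 in endosomal recycling, was detected in 1 Tex19.1-/- testis and 0 Tex19.1+/- testes and differed by 0.14 (SE 0.11). The genotypes overlapped for both. The 2 probes of Mageh1, which encodes a small MAGE protein, went opposite ways. ILMN_1234322 was detected in 0 Tex19.1-/- and 3 Tex19.1+/- testes with a difference of -0.10 (SE 0.10), and ILMN_2996941 in 3 Tex19.1-/- testes and 1 Tex19.1+/- testis with a difference of 0.13 (SE 0.10).

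Set side by side over all probes on the array, detected or not, the 9 type I probes had a median log2 difference of 0.48 (range -0.07 to 0.82) and the 11 type II probes a median of 0.14 (range -0.22 to 0.69). With signals under 1 set to 1 these medians were 0.97 for type I and 0.39 for type II, under median scaling 0.78 and 0.32, and under median scaling with another shift 0.31 and 0.13, type I being above type II in each. The type I value of 0.97 includes the undetected probes of Magea8 (ILMN_2770293, 1.21) and Mageb16 (ILMN_1253950, 1.14). The type II value of 0.39 includes the undetected Tro probe ILMN_1235530 at 0. The median was 0.06 over all 1227 X-linked probes, 0.01 over 33555 autosomal probes and 0.01 over all 45281 probes. Over kept probes only, the medians were 0.53 for type I, 0.15 for type II, 0.16 for X-linked and 0.02 for all probes. All Tex19.1-/- testes lay above all Tex19.1+/- testes for 3 of 9 type I probes and 2 of 11 type II probes, against 2.73% of all probes and 8.64% of X-linked probes. Among kept probes only, this held for 3 of 7 type I and 2 of 10 type II probes, against 95 of 544 X-linked and 798 of all 19089 probes. The opposite arrangement occurred for 0 of the 20 member probes, which is close to its share of 3.39% of all probes and 8 of 1227 X-linked probes. Paired by number, 7 of the 17 kept member probes (Magea5, Magea8, Mageb4, Maged2 and 3 of Tro) were higher in the Tex19.1-/- testis of all 4 pairs, against 14.7% of all kept probes. Since the genes were picked from these values, these medians and counts carry no weight of their own.

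**Figure D2:**
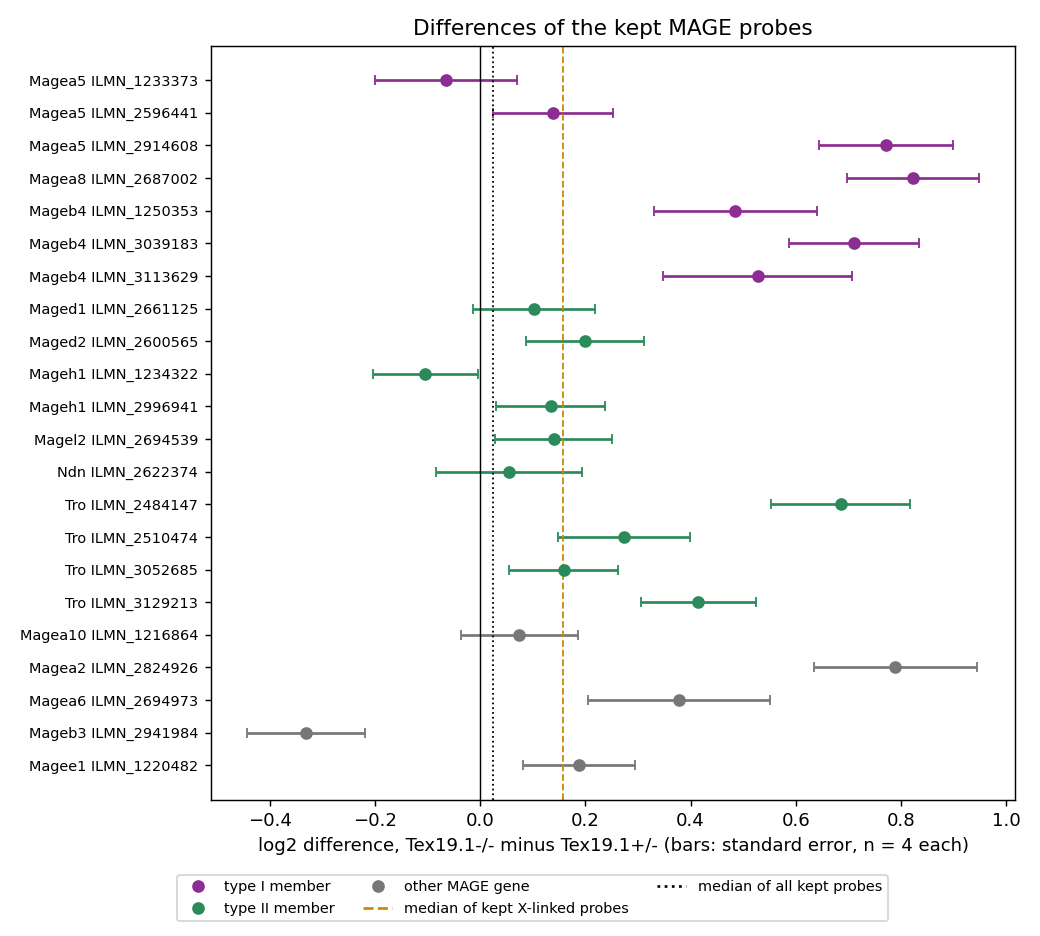
Log2 difference (Tex19.1-/- minus Tex19.1+/-) of each kept MAGE probe, with the standard error (n = 4 each), for type I members, type II members and other MAGE genes. The dashed line is the median of 544 kept X-linked probes (0.16) and the dotted line that of all 19089 kept probes (0.02), and Magea8, Magea2, Magea5, Mageb4 and Tro each have a probe above 0.6.

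The fit over all kept probes also covers the members. Its calls on them are no test, since the members were picked from these values, and only their number is given. They were 4 higher, 1 probe each of Magea5, Magea8, Mageb4 and Tro, and 0 lower. The share called higher was 0.141% of all kept probes and 2.21% of kept X-linked probes, where 12 of 544 were called. Those 12 include the 4 member probes. The count of called members was 1 without Tex19.1-/- testis 1 or 2, 3 without testis 3, 0 without testis 4, and 2 without Tex19.1+/- testis 1 or 3. It was 0 under median scaling and 0 with signals under 1 set to 1. In both of these the 4 log2 differences were larger than the values above, at 0.87 to 1.13. On the raw scale the genotypes overlapped, with Magea8 at 208, 250, 114 and 126 in Tex19.1-/- testes and 159, 133, 112 and 51.9 in Tex19.1+/- testes, so the separation appears after the arrays are brought to one distribution.

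**Figure D3:**
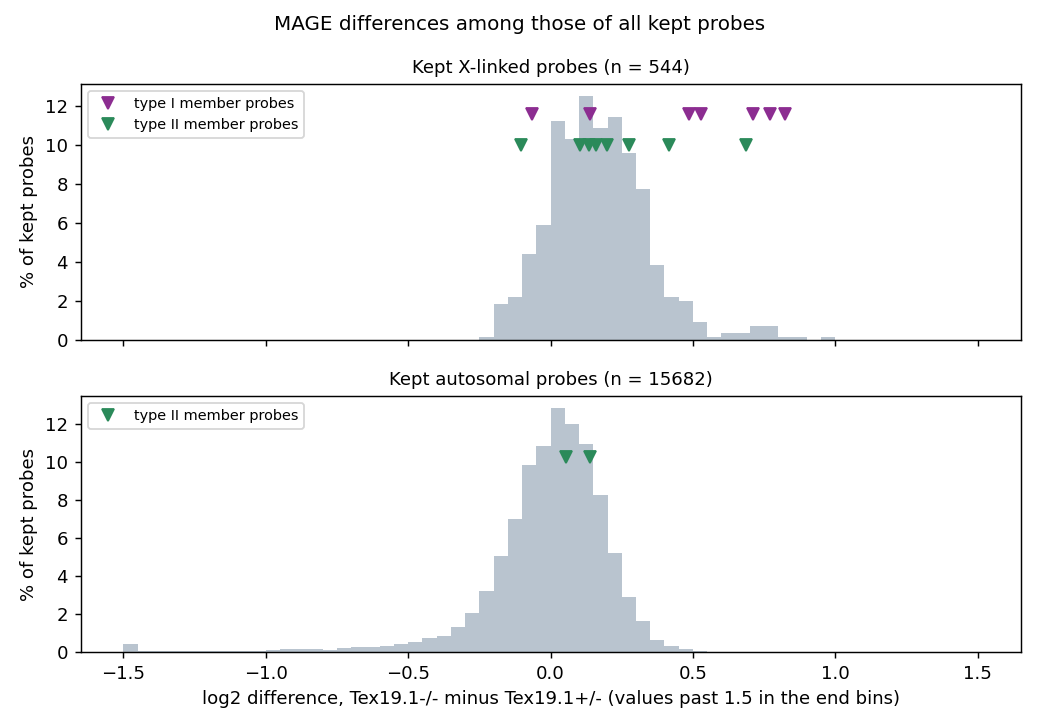
Share of kept probes (vertical axis, %) by log2 difference (horizontal axis, Tex19.1-/- minus Tex19.1+/-) for X-linked probes above and autosomal probes below. Triangles mark the kept member probes of each type, and those of Magea8, Magea5, Mageb4 and Tro at 0.69 to 0.82 lie in the right tail of the X-linked probes.

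All type I members and 4 of the 6 type II members lie on the X chromosome, and kept X-linked probes had a median log2 difference of 0.16, against 0.02 for autosomal and 0.02 for all kept probes. Maged1 and the kept probes of Mageh1 were below that X-linked median, and Maged2 was above it at 0.20. The marker lists of testis cells had these values. The summed linear signal of 12 kept spermatogonial genes was 4756 to 5138 in Tex19.1-/- testes and 4012 to 4480 in Tex19.1+/- testes (0 of 12 called, with 3 higher and 1 lower at an unadjusted limma p under 0.05, median log2 difference 0.12), that of 10 Sertoli cell genes was 41920 to 45400 in Tex19.1-/- testes and 39800 to 43080 in Tex19.1+/- testes (0 called, 1 higher at an unadjusted limma p under 0.05), and that of 5 Leydig cell genes was 877 to 1577 in Tex19.1-/- testes and 623 to 1167 in Tex19.1+/- testes (0 called, 1 higher at an unadjusted limma p under 0.05). That of 12 early prophase genes was 4613 to 5605 in Tex19.1-/- testes and 5982 to 6954 in Tex19.1+/- testes (2 called lower). Of these genes, 6 were lower and 0 higher at an unadjusted limma p under 0.05, with a median log2 difference of -0.28. The Sertoli and Leydig sums overlapped between genotypes, and the spermatogonial and early prophase sums did not. Of the myoid, endothelial, macrophage, erythroid and spermatid lists, 0 genes were called in either direction on the kept probe with the highest mean signal. On those probes, 2 macrophage genes were higher and 2 spermatid genes lower at an unadjusted limma p under 0.05. Over all 6 kept spermatid probes, 1 was called lower. The spermatid sum was 362 to 477 in Tex19.1-/- testes and 580 to 947 in Tex19.1+/- testes, and the other 4 sums overlapped. The part of cell composition in the MAGE values was not tested.

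The array also holds 17 probes of 12 other MAGE genes, taken by family name, and these were tested. Of them, 5 probes of 5 genes were kept, and 0 were called in either direction (limma, Benjamini-Hochberg over 19089 probes), with 2 higher and 1 lower at an unadjusted p under 0.05. Magea2 (ILMN_2824926), which lies between Magea8 and Magea5, had log2 signals of 8.60, 8.47, 7.98 and 8.41 in Tex19.1-/- testes and 7.90, 7.66, 7.45 and 7.29 in Tex19.1+/- testes. The genotypes did not overlap. Its log2 difference was 0.79 (SE 0.15) with an adjusted p of 0.011 (limma), just short of the call, and 0.00075 with the replicate block. Without Tex19.1-/- testis 3 it was 0.91 with a limma adjusted p of 0.0037, and without Tex19.1+/- testis 1 it was 0.91 with a limma adjusted p of 0.0076. It was called in 5 of 20 settings, and over all of them the difference was 0.66 to 1.05 and the limma adjusted p 0.00075 to 0.26. Its second probe was not detected in any testis.

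Of the remaining kept genes, Magea6 differed by 0.38 (SE 0.17, limma adjusted p = 0.35), or by 0.18 without Tex19.1+/- testis 4 and 1.21 with signals under 1 set to 1, Magee1 by 0.19 (SE 0.11, limma adjusted p = 0.48) and Magea10 by 0.07 (SE 0.11, limma adjusted p = 0.82). Mageb3 on chromosome 2 (ILMN_2941984), detected in 1 Tex19.1-/- testis and 4 Tex19.1+/- testes, ran the other way, with 5.95, 6.11, 5.67 and 5.82 in Tex19.1-/- testes and 6.21, 6.12, 6.36 and 6.18 in Tex19.1+/- testes. All its Tex19.1-/- testes were below all its Tex19.1+/- testes, and the difference of -0.33 (SE 0.11) had a limma adjusted p of 0.17. The lower level of Mageb3 rests on this probe alone, since its other probes were not detected in any testis. Magea1, Magea3, Magea4, Mageb2, Mageb18, Magee2 and the pseudogene Mageb16-ps1 were not detected. Magea6, Magea3, Magea8, Magea2, Magea5 and Magea1 follow one another on the X chromosome and are close copies in sequence. Whether each probe reads only its own gene was not tested.

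Partner genes of MAGE proteins were then followed to describe the rest of the pathway, and 0 kept probes of the 5 lists were called (limma, adjusted over all kept probes). A named partner gene with several kept probes is given first by the probe with the smallest p. Among the E3 ligases and their cofactors that MAGE proteins bind, 7 of 10 genes were kept with a median log2 difference of -0.06, and at an unadjusted p under 0.05 there were 3 lower and 0 higher. Nsmce1, the RING subunit of the SMC5/6 complex, which resolves recombination structures, was 10.41, 10.21, 10.44 and 10.31 in Tex19.1-/- testes and 10.80, 10.98, 10.69 and 10.96 in Tex19.1+/- testes. The genotypes did not overlap, and the difference of -0.51 (SE 0.10) had a limma adjusted p of 0.014. It was called in 2 of 20 settings, with cyclic loess (limma adjusted p = 0.0098) and with robust empirical Bayes and a trend on intensity (0.0094), and over the 20 settings the limma adjusted p reached 0.80, at a difference of -0.17 under median scaling. Trim27 (ILMN_2499747), a ligase of Magel2 in human cells, differed by -0.33 (SE 0.12, limma adjusted p = 0.20), and by -0.16 and -0.05 on its other kept probes. Trim28, which human MAGE-A and MAGE-C proteins bind and which silences retrotransposons, differed by -0.25 (SE 0.11, limma adjusted p = 0.30). Under median scaling the Trim28 difference turned to 0.12.

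The SMC5/6 list, Nsmce1 included, had 5 of 7 genes kept, with 1 probe higher and 1 lower at an unadjusted p under 0.05. Slf2, which recruits the complex to damaged DNA, differed by 0.26 (SE 0.10, limma adjusted p = 0.24), and by 0.07 to 0.17 on its other kept probes. Smc5 differed by -0.27 (SE 0.14, limma adjusted p = 0.44), and by -0.10 on its other probe. Of the WASH and retromer genes, on which human MAGEL2 acts, 6 of 8 were kept, with 1 probe higher and 1 lower at an unadjusted p under 0.05. Washc3 (ILMN_2744592) differed by -0.36 (SE 0.11, limma adjusted p = 0.11), and by -0.23 and -0.13 on its other probes. Washc1 differed by 0.22 (SE 0.10, limma adjusted p = 0.35) and Washc4 by 0.19 (SE 0.15, limma adjusted p = 0.62). Of the imprinted genes beside Ndn and Magel2, 2 of 3 were kept and 0 probes had an unadjusted p under 0.05. Mkrn3 differed by 0.16 (SE 0.11, limma adjusted p = 0.57) and Snurf by 0.16 (SE 0.10, limma adjusted p = 0.53), or by 0.07 on the other kept Snurf probe. Of 9 genes listed as partners of type II MAGE proteins or of the p75 neurotrophin receptor, 4 were kept. Among their probes, 2 were higher and 0 lower at an unadjusted p under 0.05. Both probes of the X-linked gene Bex3, which binds the p75 receptor, were higher in every Tex19.1-/- testis than in any Tex19.1+/- testis, with differences of 0.32 (SE 0.10, limma adjusted p = 0.13) and 0.27 (SE 0.09, limma adjusted p = 0.17). The same separation was found for 95 of 544 kept X-linked probes, among which these 2 differences ranked 92nd and 137th.

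**Figure D4:**
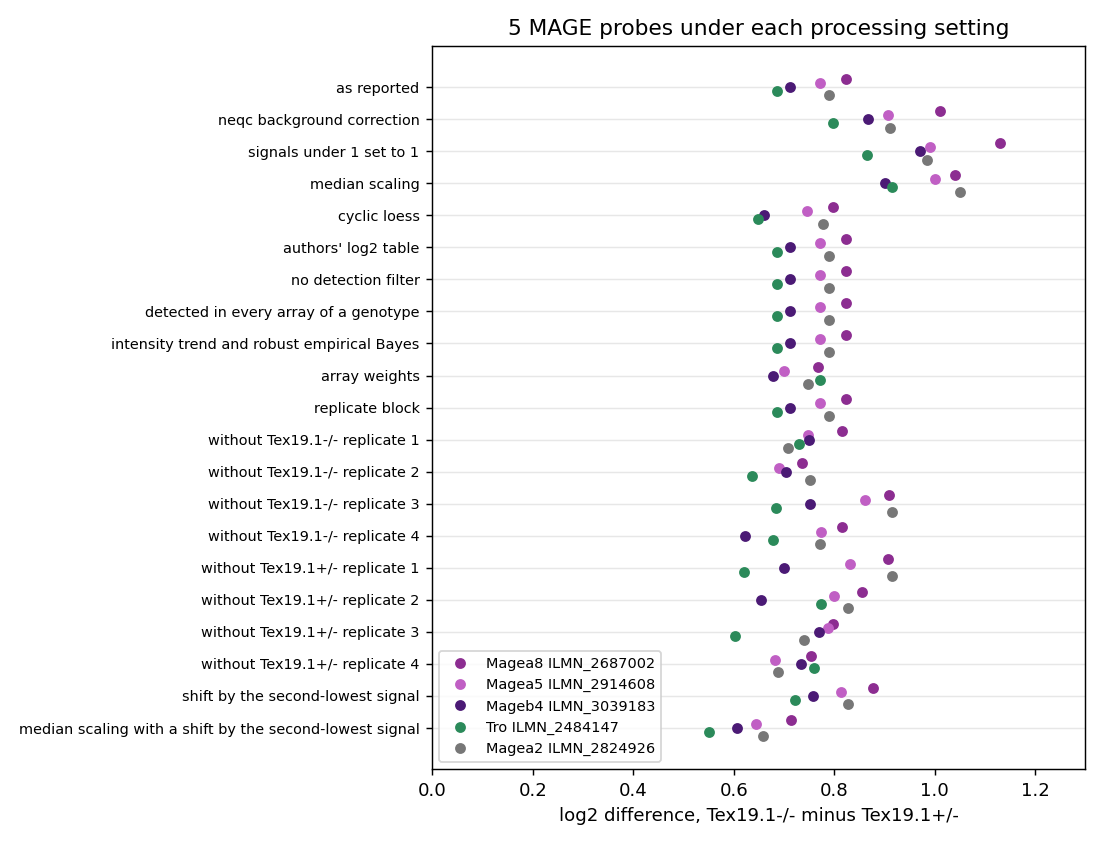
Log2 difference (Tex19.1-/- minus Tex19.1+/-) of 5 MAGE probes under each processing setting and with each animal left out, named on the vertical axis. All points lie above 0 and range over 0.55 to 1.13, and the mean over all kept probes of a gene, 0.28 for Magea5 and 0.38 for Tro, is not plotted.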

How the data were processed

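RNA from 8 testes was read on Illumina Mouse WG-6 v2.0 arrays. The authors deposited a linear intensity per probe, from which BeadStudio had subtracted the background, a detection p-value, and a table of log2 values that they had quantile-normalized. The version of BeadStudio is not given in the sources used here. That table (median 5.73 in each array) differed by at most 0.0144 from the log2 values computed here. A constant was added to the signals of an array so that the lowest was 1, and after log2 the arrays were brought to common quantiles (limma 3.58.1, R 4.3.3). Of all probes, 42.2% had a detection p under 0.01 somewhere and stayed in the fit. The genotype term was fitted by lmFit and eBayes on 6 residual degrees of freedom, Benjamini-Hochberg adjusted over all kept probes. The step was tested on simulated data. The number of arrays limits the precision.

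Symbols follow the platform annotation, updated with a RefSeq table of GRCm38.p6. RefSeq promoter windows were used for 250 bases before the start, and were aligned with Biopython. Figures were drawn with matplotlib.

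Named are all 10 members, every kept probe of other MAGE genes and, of each partner list, up to 3 genes with the smallest p. The members, lists and tests were chosen with earlier results of these data known. Alternatives covered background, normalization, filter, variance model, the replicate block and leaving out each animal. After subtraction of genotype means, animals of the same number correlated at 0.215, 0.524, 0.103 and 0.226. The replicate block takes the numbers to pair the animals, which is an assumption. No source used here says what the numbers mark. Animals of unlike number correlated as well, Tex19.1-/- 3 with Tex19.1+/- 4 at 0.447 and Tex19.1-/- 4 with Tex19.1+/- 3 at 0.23. The correlations therefore do not establish the pairing.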

Additional observations from a re-analysis of the deposited data

Results flagged for a closer look

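Of 50 groups of 4 testes (a MAGE probe in a genotype), 5 held 1 testis far from the other 3, and about 1 in 20 groups is picked in this way by chance. In 3 of the 5 that testis was Tex19.1+/- 4, which was low for Mageb4 ILMN_3113629 (8.97, the others 9.47 to 9.52), for Tro ILMN_2510474 (6.91, the others 7.26 to 7.32) and for Magea6 ILMN_2694973 (5.66, the others 6.42 to 6.48). Mageh1 ILMN_2996941 was low in Tex19.1-/- testis 4 (5.81, the others 6.10 to 6.13) and in Tex19.1+/- testis 2 (5.82, the others 5.92 to 5.94), both near the limit of detection.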

How the results depend on the processing

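The sign of the log2 difference held for Magea8, Magea5, Mageb4, Tro and Magea2 on the probes plotted in every setting run. With signals under 1 set to 1, 1 of all kept probes was called higher and 20 lower, and 0 member probes were called. The median log2 difference over member probes, detected or not, was then 0.97 for type I and 0.39 for type II. With median scaling the counts were 0 higher, 1 lower and 0 members, the type I median was 0.78, and the median of all kept probes moved to 0.14 (X-linked 0.29). Median scaling after a shift by the second-lowest signal, chosen after seeing the data because 1 probe sets the shift of Tex19.1+/- arrays 1 and 2, gave 7 higher, 0 members, a type I median of 0.31 and a median of all kept probes of -0.07 (X-linked 0.07). Cyclic loess called 1 probe of the ligase list and of the SMC5/6 list lower (Nsmce1 in both), as did the intensity trend, which also called 1 other MAGE probe higher (Magea2), as did array weights. With the replicate block the pairing gave 48 higher, 470 lower and 1 other MAGE probe higher, and 4 member probes. Leaving out 1 animal gave 16 to 27 higher and 151 to 313 lower of all probes, 0 to 4 members, 0 to 1 other MAGE probe (1 without Tex19.1-/- testis 3 or Tex19.1+/- testis 1), a type I median of 0.36 to 0.62 and a type II median of 0.12 to 0.18. The sign turned for Trim28 under median scaling (0.12), for E2f1 under median scaling with the other shift (-0.032), for Magea10 without Tex19.1-/- testis 2 (-0.0016), for Ndn in 3 settings (-0.12 to -0.0098) and for Magea5 ILMN_1233373 without Tex19.1-/- testis 3 (0.0047) or Tex19.1+/- testis 1 (0.00056), none of them called. Averaging all kept probes of a gene gave 0.28 for Magea5, 0.38 for Tro and 0.01 for Mageh1. The cause of these changes was not tested. Signals near background limit Magel2 and Mageh1.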
